A study of Mus musculus with 9 samples.

Results

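Eosinophil granule and receptor genes were described as a set of 10 genes chosen by name: Prg2, Prg3, Epx, Ear1, Ear2, Ear6, Il5ra, Ccr3, Siglecf and Alox15. Of these, 9 matched a row among the 21159 genes of the raw count table, and all 9 passed the filter on low counts that left 11196 genes for testing. Il5ra, the interleukin-5 receptor subunit (ENSMUSG00000005364), was not analysed here. The cells came from lineage-depleted mouse bone marrow of 1 genotype, Runx2 fl/fl with a CreER T2 transgene, a Cre that acts only in the presence of tamoxifen. Runx2ko cells (3 libraries) carried a KMT2A-MLLT1-eGFP retrovirus, were replated in methylcellulose every 7 days, were moved to suspension culture after the second replating, and received 400 nM 4-hydroxytamoxifen (4-OHT) over 24 hours. Runx2wt cells (3 libraries) had the same floxed alleles, transgene, retrovirus and culture and received ethanol, so that their name refers to alleles not exposed to active Cre. BM progenitor cells (3 libraries) were untreated and their RNA was taken before the first replating, and the labels do not say whether these cells had received the fusion. Passage, culture form and transformation therefore cannot be told apart in the comparisons with BM progenitor, nor 4-OHT and Runx2 deletion in Runx2ko. The sources used here give neither the promoter of the Cre transgene nor the sex or age of the mice, and the labels call the samples independent biological replicates.

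Eosinophils are granulocytes that form in the bone marrow from myeloid progenitors, under interleukin-5 and with the transcription factor GATA-1 and C/EBP factors as known requirements. Their precursors fill granules with major basic protein (Prg2), eosinophil peroxidase (Epx) and, in mice, ribonucleases of the Ear family. The mature cell follows eotaxins through the chemokine receptor Ccr3 and carries the inhibitory lectin Siglecf. KMT2A-MLLT1 is a leukaemia fusion protein that sustains the growth of immature myeloid cells in culture.

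The smallest library held 3118594 counts and the largest 5348177, with 14377 to 15634 genes read at least once. QuantSeq reads 1 tag near the 3' end of a transcript, so levels do not grow with transcript length; they are given as CPM, counts scaled to a common library size with TMM factors. Runx2ko replicate 1 stood apart. Its log2(CPM + 1) values correlated across genes at 0.811 to 0.832 with the other transformed libraries, which correlated with each other at 0.941 to 0.964. With the BM progenitor libraries Runx2ko replicate 1 correlated at 0.843 to 0.852, above its values with transformed libraries. The other transformed libraries correlated with BM progenitor at 0.837 to 0.882. Runx2, the gene targeted by the design, had 21.0, 120 and 135 CPM in Runx2ko replicates 1 to 3, against 159, 179 and 131 CPM in Runx2wt and 53.3, 46.7 and 58.8 CPM in BM progenitor. The Runx2 level of Runx2ko replicate 3 was thus between those of Runx2wt libraries. The deleted exon is not named in the labels and 3' tags may lie outside it, so the level of this gene does not check the deletion. Ptprc, the pan-leukocyte marker CD45, had 134 CPM or more in every library. Kit, a receptor of stem and progenitor cells, had 40.6 CPM or more in every library. Cd34, another progenitor marker, had 14.7, 1.94 and 3.62 CPM in Runx2wt, against 81.0, 83.1 and 76.9 CPM in BM progenitor.

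The 9 eosinophil genes were read in every BM progenitor library. All but Prg2 and Siglecf had at most 1.29 CPM in any transformed library, Siglecf at most 3.57 CPM and Prg2 at most 16.5 CPM. Summed over the 9 genes, levels were 19.4, 9.13 and 10.8 CPM in Runx2ko replicates 1 to 3, 4.70, 2.77 and 3.89 CPM in Runx2wt, and 1817, 1844 and 1382 CPM in BM progenitor. The sums thus rested on 40 to 60 counts in a Runx2ko library, 10 to 25 counts in a Runx2wt library and 6505 to 9958 counts in a BM progenitor library. By edgeR's quasi-likelihood F-test at an adjusted p under 0.05, 8 of 9 were lower in Runx2ko than in BM progenitor, where 7.14% of all 11196 tested genes were lower. The same 8 were lower in Runx2wt than in BM progenitor, where 5.23% of tested genes were lower. Siglecf was the exception in both, and none was higher. The groups of these 8 genes did not overlap in either comparison, as held for 18.8% of tested genes for Runx2ko below BM progenitor and for 24.5% for Runx2wt below BM progenitor. Because 7 of the 9 genes passed the filter on low counts only through the BM progenitor libraries (Prg2 and Siglecf also passed it in the transformed libraries alone), the count describes the set and lends no weight to it. Median log2 fold changes were -6.30 for Runx2ko and -8.85 for Runx2wt against BM progenitor, where those of all tested genes were 0.07 and 0.01. With the 4 genes that had no count in Runx2wt set at a floor of 3 counts over the group, the Runx2wt median was -7.56. Both comparisons use the same BM progenitor libraries. Without Runx2ko replicate 1, 8 genes were again lower in both, where 12.6% (Runx2ko) and 12.1% (Runx2wt) of tested genes were lower. In bulk RNA, fewer cells of a type and less RNA per cell cannot be told apart.

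**Figure D1:**
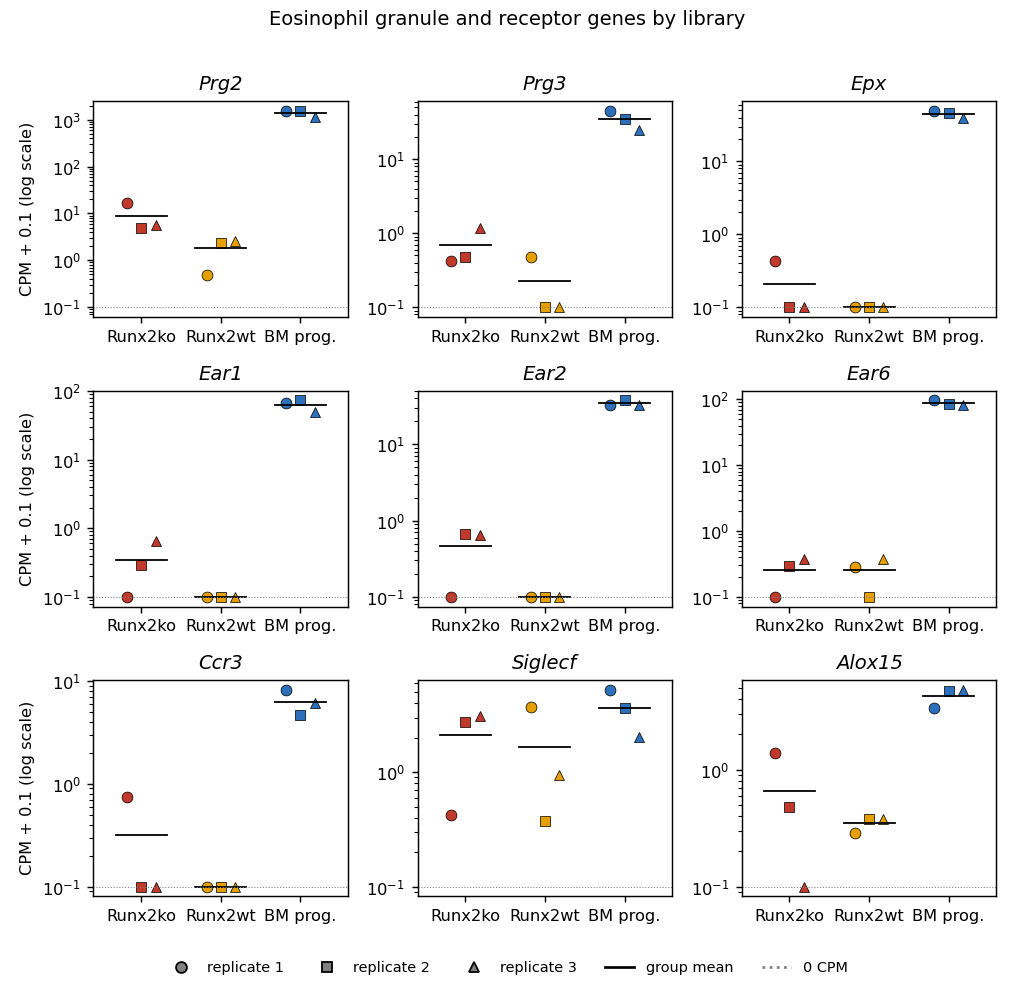
Level of each of the 9 eosinophil genes in the 9 libraries, as CPM plus 0.1 on a log axis, with Runx2ko, Runx2wt and BM progenitor from left to right. Points are libraries, shaped by replicate, the bar is the group mean, and the dotted line marks 0 CPM. For every gene except Siglecf the BM progenitor libraries lie above all 6 transformed ones. Prg2 is the only gene whose Runx2ko libraries (4.76 to 16.5 CPM) all lie above its Runx2wt libraries (0.376 to 2.50 CPM).

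The granule proteins held the highest level. Prg2 (ENSMUSG00000027073, GRCm38 chr2:84980461-84983632, plus strand) encodes major basic protein, the cationic core of the eosinophil granule, and is also known from basophils. It had 16.5, 4.76 and 5.42 CPM in Runx2ko, 0.376, 2.22 and 2.50 CPM in Runx2wt, and 1509, 1556 and 1142 CPM in BM progenitor. Means were 8.89 ± 6.59, 1.70 ± 1.15 and 1402 ± 227 CPM in Runx2ko, Runx2wt and BM progenitor (SD, n = 3 each). All 6 transformed libraries lay far below the lowest BM progenitor library, and the SD of BM progenitor was small beside the gap. From pooled counts, Prg2 was 175-fold lower in Runx2ko (95% counting interval 143 to 216) and 921-fold lower in Runx2wt (589 to 1529) than in BM progenitor. Such intervals cover counting error only. The edgeR log2 fold changes were -7.34 (SE 0.60, adjusted p = 0.000769) for Runx2ko and -9.76 (SE 0.69, adjusted p = 0.000345) for Runx2wt.

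Prg3 (ENSMUSG00000027072, chr2:84988215-84993886, plus strand) encodes a second major basic protein and lies next to Prg2 on the same strand. It had 0.323, 0.381 and 1.08 CPM in Runx2ko, 0.376, 0 and 0 CPM in Runx2wt, and 45.3, 34.5 and 24.4 CPM in BM progenitor. The transformed groups overlapped with each other and stayed clear of BM progenitor. Its edgeR log2 fold changes were -5.82 (SE 0.62, adjusted p = 0.0015) for Runx2ko and -7.56 (SE 0.72, adjusted p = 0.000952) for Runx2wt against BM progenitor. The transcripts of Prg2 and Prg3 were 67.3% identical, and 65.7% over their last 150 bases, where a 3' tag falls. The 250 bases before the RefSeq start of Prg3 are shown because they hold a GATA site (capitals), the motif that GATA-1 is known to recognise. They lie in build GRCm38.p6 at chr2:84987965-84988214, plus strand.
Prg3: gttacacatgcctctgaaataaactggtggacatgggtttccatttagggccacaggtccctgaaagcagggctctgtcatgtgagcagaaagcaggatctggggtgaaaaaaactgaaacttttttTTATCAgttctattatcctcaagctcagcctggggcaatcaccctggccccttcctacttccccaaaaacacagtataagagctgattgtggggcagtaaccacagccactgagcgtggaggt
The site was found on the minus strand, with its first base 123 bases before the start. RefSeq's promoter table holds 8 of the 10 genes.

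Epx (ENSMUSG00000052234, chr11:87864000-87875536, minus strand) encodes eosinophil peroxidase, the haem enzyme of the granule matrix. It had 0.323, 0 and 0 CPM in Runx2ko, no count in any Runx2wt library, and 49.6, 46.7 and 39.3 CPM in BM progenitor. The Runx2ko value was a single read against 630 in BM progenitor, a ratio of 546 with a counting interval of 97.6 to 21587. Against a floor of 3 counts over the group (0.240 CPM), Epx was 189-fold lower in Runx2wt than in BM progenitor. The lower limit of its counting interval was 153-fold. By edgeR both decreases passed, with adjusted p = 0.00138 for Runx2ko and 0.000793 for Runx2wt.

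The Ear genes encode the eosinophil-associated ribonucleases of the mouse, relatives of human eosinophil cationic protein and eosinophil-derived neurotoxin. Ear1 (ENSMUSG00000072601, chr14:43818765-43875517, minus strand) had 0, 0.190 and 0.542 CPM in Runx2ko, 0 in every Runx2wt library, and 67.5, 72.8 and 48.8 CPM in BM progenitor. Ear2 (ENSMUSG00000072596, chr14:44102654-44103534, plus strand) had 0, 0.571 and 0.542 CPM in Runx2ko, 0 in every Runx2wt library, and 32.5, 37.5 and 32.7 CPM in BM progenitor. Ear6 (ENSMUSG00000062148, chr14:51853699-51854643, plus strand) had 0, 0.190 and 0.271 CPM in Runx2ko, 0.188, 0 and 0.278 CPM in Runx2wt, and 96.3, 83.4 and 82.2 CPM in BM progenitor. All 3 genes were thus confined to stray reads in the transformed cells and were even across the BM progenitor libraries. From pooled counts in Runx2ko against BM progenitor, Ear1 was 251-fold lower (85.7 to 1220), Ear2 81.6-fold lower (34.7 to 252) and Ear6 530-fold lower (146 to 4382). In Runx2wt against BM progenitor, Ear6 was 551-fold lower (152 to 4557). Against the floor of 3 counts, Ear1 was 261-fold and Ear2 141-fold lower in Runx2wt. The lower limits of their counting intervals were 212-fold and 115-fold. Ear6 had the smallest adjusted p of the 9 genes by edgeR, 5.57e-05 for Runx2ko (log2 fold change -8.81, SE 0.45) and 3e-05 for Runx2wt (-8.85, SE 0.45). The other edgeR adjusted p values against BM progenitor were 0.0011 for Ear1 and 0.00177 for Ear2 in Runx2ko, and 0.000529 for Ear1 and 0.00124 for Ear2 in Runx2wt.

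Reads of Ear1 and Ear2 may not be separable, so their own values are uncertain. Their longest coding transcripts were 96.8% identical and 99.3% over the last 150 bases, whereas Ear1 and Ear6 were 85.2% identical and 89.8% over the last 98 bases that aligned. Over the last 94 bases that aligned, Ear6 was 96.8% identical to Ear14, a gene not analysed here. Over the whole transcripts that identity was 83.7%, below the 85.2% of Ear6 with Ear1. The values of Ear6 may therefore be uncertain too. Summed into 1 feature, the 3 genes had 0, 0.952 and 1.36 CPM in Runx2ko, 0.188, 0 and 0.278 CPM in Runx2wt, and 196, 194 and 164 CPM in BM progenitor. The sum fell by edgeR in Runx2ko (log2 fold change -7.77, adjusted p = 0.000219) and in Runx2wt (-9.93, adjusted p = 0.000114). The likeness extended to the bases before the RefSeq starts. The stretches from 250 to 71 bases before the RefSeq start are shown because these genes moved together and differ in 1 motif; capitals mark a C/EBP site, TTGCNNAA, read on both strands. They lie in GRCm38.p6 at chr14:43819710-43819889 on the minus strand (Ear1), at chr14:44102404-44102583 on the plus strand (Ear2) and at chr14:51853518-51853697 on the plus strand (Ear6). For Ear1 the RefSeq start differs from that of the Ensembl gene, at 43875517 on the minus strand. The Ear1 stretch thus lies inside the Ensembl gene, where it overlaps no annotated exon.
Ear1: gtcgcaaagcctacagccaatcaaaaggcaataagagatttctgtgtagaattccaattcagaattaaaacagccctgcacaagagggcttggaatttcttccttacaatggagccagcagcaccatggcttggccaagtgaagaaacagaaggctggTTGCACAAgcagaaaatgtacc
Ear2: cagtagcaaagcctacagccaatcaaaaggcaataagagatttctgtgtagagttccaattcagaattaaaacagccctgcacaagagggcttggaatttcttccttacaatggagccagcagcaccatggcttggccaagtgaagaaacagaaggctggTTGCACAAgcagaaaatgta
Ear6: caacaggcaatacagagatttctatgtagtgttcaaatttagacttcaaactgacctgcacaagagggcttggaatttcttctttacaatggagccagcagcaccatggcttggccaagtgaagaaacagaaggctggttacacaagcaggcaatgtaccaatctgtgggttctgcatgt
Ear1 and Ear2 were identical at 176 of 178 aligned bases (98.9%), and Ear6 was 91.2% identical to Ear1 and 91.7% to Ear2. The site TTGCACAA began 92 bases before the start in Ear1 and 90 bases before it in Ear2. The bases of Ear6 aligned with it read TTACACAA, a substitution of G3A counted from 1 at the 5' end of the motif, and Ear6 held no match in its window. Whether this base bears on the levels was not tested, and the levels of the 3 genes cannot be ranked safely where reads may not be separable.

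Among the receptors, Ccr3 fell and Siglecf did not pass. Ccr3 (ENSMUSG00000035448, chr9:124021972-124031689, plus strand) encodes the eotaxin receptor. It had 0.647, 0 and 0 CPM in Runx2ko, 0 in every Runx2wt library, and 8.03, 4.59 and 5.95 CPM in BM progenitor. The highest transformed library was thus below the lowest BM progenitor library, at a level much lower than that of the granule genes. From pooled counts, Ccr3 was 38.5-fold lower in Runx2ko (10.4 to 323). Against the floor of 3 counts it was 26.7-fold lower in Runx2wt, with a lower limit of the counting interval of 21.3-fold. The edgeR adjusted p was 0.0204 for Runx2ko and 0.0142 for Runx2wt, and without any 1 of the BM progenitor libraries it was 0.0719 to 0.0818 and 0.0608 to 0.0654. For Runx2ko it was also 0.0517 without Runx2ko replicate 3. The 250 bases before the start of Ccr3 (GRCm38.p6, chr9:124021721-124021970, plus strand) are shown with their 2 GATA sites in capitals, 64 and 30 bases before the start.
Ccr3: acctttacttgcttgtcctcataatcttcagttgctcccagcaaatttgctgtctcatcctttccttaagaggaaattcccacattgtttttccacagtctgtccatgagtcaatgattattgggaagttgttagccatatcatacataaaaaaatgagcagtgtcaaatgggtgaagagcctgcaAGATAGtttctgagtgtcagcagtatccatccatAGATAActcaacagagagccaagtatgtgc
Motif matches were also counted over the windows of 250 bases before to 50 after the start of 32851 RefSeq promoters, on both strands. A GATA site (AGATAA or TGATAA or AGATAG or TGATAG) was in 4 of the 8 eosinophil gene promoters (Ccr3, Il5ra, Prg3 and Siglecf) and in 29.8% of all promoters. The C/EBP motif was in 2 of 8 (Ear1 and Ear2) and in 10.8% of all. The PU.1 core GAGGAA was in 3 of 8 (Ccr3, Il5ra and Siglecf) and in 28.3% of all. The RUNX motif (TGTGGT or TGCGGT) was in 2 of 8 (Prg3 and Siglecf) and in 22.4% of all. No matches of different motifs overlapped, and a match shows only that the letters are present.

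Siglecf (ENSMUSG00000039013, chr7:43351341-43359531, plus strand) encodes a sialic acid-binding lectin that also marks alveolar macrophages in mice. It had 0.323, 2.66 and 2.98 CPM in Runx2ko, 3.57, 0.277 and 0.835 CPM in Runx2wt, and 5.11, 3.51 and 1.91 CPM in BM progenitor. All 3 groups overlapped, and a library of Runx2wt lay above a pair of BM progenitor libraries. By edgeR the log2 fold change was -0.78 for Runx2ko (SE 0.88, adjusted p = 0.576) and -1.08 for Runx2wt (SE 0.89, adjusted p = 0.43). Siglecf held 23 of the 49 counts of the 9 genes in Runx2wt (46.9%) and 26 of 148 in Runx2ko (17.6%), but 50 of 23299 in BM progenitor (0.215%).

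Alox15 (ENSMUSG00000018924, chr11:70344152-70352031, minus strand) encodes the 12/15-lipoxygenase that makes oxidised fatty acid mediators in eosinophils and macrophages. It had 1.29, 0.381 and 0 CPM in Runx2ko, 0.188, 0.277 and 0.278 CPM in Runx2wt, and 3.28, 4.59 and 4.67 CPM in BM progenitor. The groups did not overlap with BM progenitor, though the highest Runx2ko library came within a few CPM of it. The edgeR log2 fold changes were -2.93 (SE 0.80, adjusted p = 0.036) for Runx2ko and -3.95 (SE 0.88, adjusted p = 0.0222) for Runx2wt. Both calls were lost without any 1 of the BM progenitor libraries (adjusted p 0.0941 to 0.123 and 0.0692 to 0.0882) and without any 1 of the Runx2wt libraries (0.0558 to 0.0608 and 0.0654 to 0.0873), and for Runx2ko also without replicate 2 (0.0902) or 3 (0.0626). With the replicate number as a block they were 0.0774 for Runx2ko and 0.0529 for Runx2wt.

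In BM progenitor, levels by 3' tag, which carry no length term, were ordered Prg2, Ear6, Ear1, Epx, Prg3, Ear2, Ccr3, Alox15 and Siglecf. Only Prg2, Ear6 and Ear2 had every library above every library of the next gene in this order. The neighbours from Ear1 to Ear2 and from Ccr3 to Siglecf overlapped. The places of the Ear genes rest on reads that may not be separable. Prg2 alone gave 82.6% to 84.4% of the counts of the 9 genes in the BM progenitor libraries. In transformed cells this share was 85.0%, 52.1% and 50.0% in Runx2ko replicates 1 to 3 and 8%, 80.0% and 64.3% in Runx2wt, from few counts. By mean CPM Prg2 led the order in both transformed groups, followed by Siglecf. It was clear of Siglecf in Runx2ko, whereas in Runx2wt the genes overlapped and Siglecf had more counts (23 against 19).

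**Figure D2:**
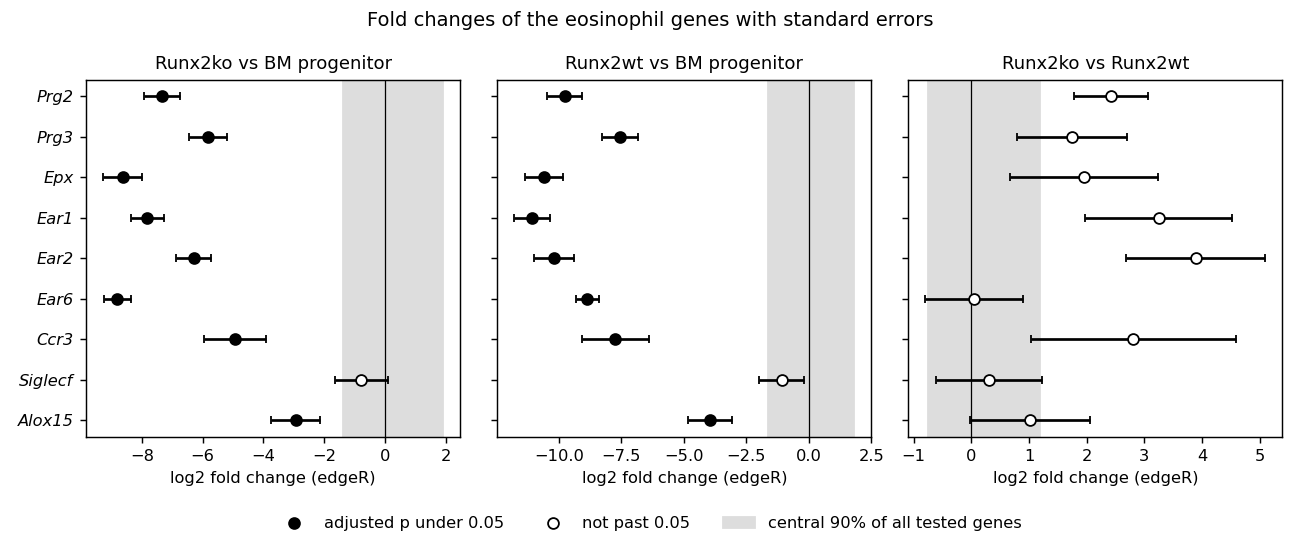
Log2 fold changes of the 9 genes with standard errors from edgeR, for Runx2ko against BM progenitor, Runx2wt against BM progenitor and Runx2ko against Runx2wt from left to right. Filled points passed an adjusted p of 0.05, open points did not, and the grey band holds the central 90% of all tested genes. In the first and second panels 8 genes lie left of the band and Siglecf within it, and in the third all points are open. Fitted values of genes with no count in Runx2wt (Epx, Ear1, Ear2 and Ccr3) depend on the prior count and are no bounds.

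Between Runx2ko and Runx2wt cells, no eosinophil gene passed. By edgeR 0 of 9 were called, where 0% of all tested genes were; at an unadjusted p under 0.05 there were 3 of 9 (Prg2, Ear1 and Ear2) and 7.91% of all genes, 886 in number. limma-voom also called no gene, and DESeq2 called 48 genes (0.41%), Prg2 among them. Every Runx2ko library had more Prg2 than every Runx2wt library, and Prg2 was the only one of the 9 with groups that did not overlap, as held for 4.95% of tested genes with Runx2ko higher. Its log2 fold change was 2.42 by edgeR (SE 0.64, unadjusted p = 0.00385, adjusted p = 0.579), and the DESeq2 adjusted p was 0.0118. Over all alternatives its adjusted p ran from 0.0118 to 0.978. Without Runx2ko replicate 1 edgeR called 5 genes (0.043%), none of them an eosinophil gene. That library had the highest Prg2 level, and without it the edgeR log2 fold change was 1.68 (SE 0.48, adjusted p = 0.353). Ear1 and Ear2 had 3 and 5 counts in Runx2ko and none in Runx2wt, with edgeR adjusted p values of 0.604 and 0.579. Ear6 had 2 counts in each group and an edgeR log2 fold change of 0.04 (SE 0.84) with an adjusted p of 0.993. Prg3 and Siglecf gave 1.74 (SE 0.95) and 0.31 (SE 0.92), with edgeR adjusted p = 0.672 and 0.947. No median over the 9 genes is given for this comparison, because Epx, Ear1, Ear2 and Ccr3 had no count in Runx2wt and their fitted values depend on the prior count. These genes lie at or under the floor of 3 counts over a group in Runx2wt except Prg2 and Siglecf, so that smaller differences were not detectable at this depth.

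Other genes of eosinophil biology were described by list. Of 10 listed growth factors and chemoattractants, 3 were tested, and 1 was lower in both transformed groups than in BM progenitor. It was Ccl24, which encodes eotaxin-2, a ligand of Ccr3 made by macrophages and other cells. Ccl24 had 2.26, 2.28 and 1.90 CPM in Runx2ko, 0, 0 and 0.278 CPM in Runx2wt, and 103, 188 and 158 CPM in BM progenitor. Every transformed library lay far below BM progenitor, and every Runx2ko library lay above every Runx2wt library. By edgeR the log2 fold change was -6.10 in Runx2ko (SE 0.38, adjusted p = 0.000163), -10.42 in Runx2wt (SE 0.53, adjusted p = 3e-05), and 4.31 for Runx2ko against Runx2wt (SE 0.72, adjusted p = 0.442). Il5, the eosinophil growth factor, had 2 counts in Runx2ko and none in the other groups, and Il3, Csf2, Ptgdr2, Hrh4, Ear10, Ear14 and Vamp7 were not analysed here.

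The counts of the following lists can be read against all tested genes, of which 10% were higher and 7.14% lower in Runx2ko than in BM progenitor, and 8.28% higher and 5.23% lower in Runx2wt. When Runx2ko replicate 1 was left out, 15.9% were higher and 12.6% lower in Runx2ko, and 15.9% higher and 12.1% lower in Runx2wt. Of 12 tested receptor genes, 3 were higher and 1 lower in Runx2ko than in BM progenitor, and 1 was higher and none lower in Runx2wt. In the fit without that library, 4 receptor genes were higher and 4 lower in Runx2ko, and 3 higher and 5 lower in Runx2wt. Adgre1, the F4/80 antigen of macrophages and mouse eosinophils, was higher in both, by 1.13 log2 units in Runx2ko (edgeR adjusted p = 0.018) and 1.63 in Runx2wt (adjusted p = 0.00604). Il3ra, a receptor subunit for interleukin-3, was higher in Runx2ko by 1.32 log2 units (edgeR adjusted p = 0.0196), and Pirb, an inhibitory immunoglobulin-like receptor, fell by 0.89 log2 units (adjusted p = 0.0213). These 3 calls in Runx2ko were lost without any 1 of the BM progenitor libraries, with edgeR adjusted p values of up to 0.0802 for Adgre1, 0.0852 for Il3ra and 0.0836 for Pirb. Of 14 tested transcription factor and regulator genes, 1 was higher and 1 lower in each transformed group. Id1, an inhibitor of helix-loop-helix factors, rose by 1.90 log2 units in Runx2ko (edgeR adjusted p = 0.00269) and 2.01 in Runx2wt (adjusted p = 0.00274). Trib1, a pseudokinase that lowers C/EBP levels and is known from mice to be needed for normal eosinophils, had log2 fold changes of -2.79 in Runx2ko (edgeR adjusted p = 0.00677) and -1.80 in Runx2wt (adjusted p = 0.0272). The Runx2wt call of Trib1 was lost without any 1 of the BM progenitor libraries and without Runx2wt replicate 1 or 2 (edgeR adjusted p up to 0.108), whereas the calls of Id1 and Ccl24 passed in each of the 9 fits that left out 1 library. Cebpa, Cebpb and Spi1, which encode C/EBP alpha, C/EBP beta and PU.1, overlapped between every pair of groups. Cebpe, another C/EBP gene of the list, was picked after its values were seen. Its highest Runx2ko library (13.8 CPM) lay below its lowest BM progenitor library (27.6 CPM). That decrease did not pass by edgeR (log2 fold change -2.04, adjusted p = 0.137). Runx2wt libraries ranged from 2.23 to 33.3 CPM for Cebpe and overlapped with both other groups.

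Gata1 and Gata2, which encode factors known to recognise the GATA motif, were picked for description after their values were seen. Binding to the sites shown above was not measured. Gata1 had 35.3, 0.381 and 0 CPM in Runx2ko, 0.188, 0 and 0.278 CPM in Runx2wt, and 7.12, 8.63 and 11.7 CPM in BM progenitor. Gata2 had 567, 4.00 and 8.94 CPM in Runx2ko, 22.8, 3.05 and 6.12 CPM in Runx2wt, and 114, 108 and 133 CPM in BM progenitor. Runx2ko replicate 1 was above BM progenitor for both, and the 5 other transformed libraries were below it. With all libraries the edgeR adjusted p for Runx2wt against BM progenitor was 0.089 for Gata1 and 0.162 for Gata2. Without Runx2ko replicate 1 both passed: Gata1 had log2 fold changes of -5.22 in Runx2ko (edgeR adjusted p = 0.00155) and -5.61 in Runx2wt (adjusted p = 0.000434), and Gata2 of -4.24 (adjusted p = 0.00107) and -3.40 (adjusted p = 0.000833). Without that library 6 of the 14 regulator genes were lower and 2 higher in each comparison with BM progenitor. Runx2ko replicate 1 was the library with the highest Gata1 and Gata2. In it Prg2 (51 counts), Alox15 (4 counts), Ccr3 (2 counts) and Epx (1 count) were at their highest level of any transformed library. Prg3 and Siglecf had 1 count each there, and Ear1, Ear2 and Ear6 had none. Whether these levels are linked was not tested.

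**Figure D3:**
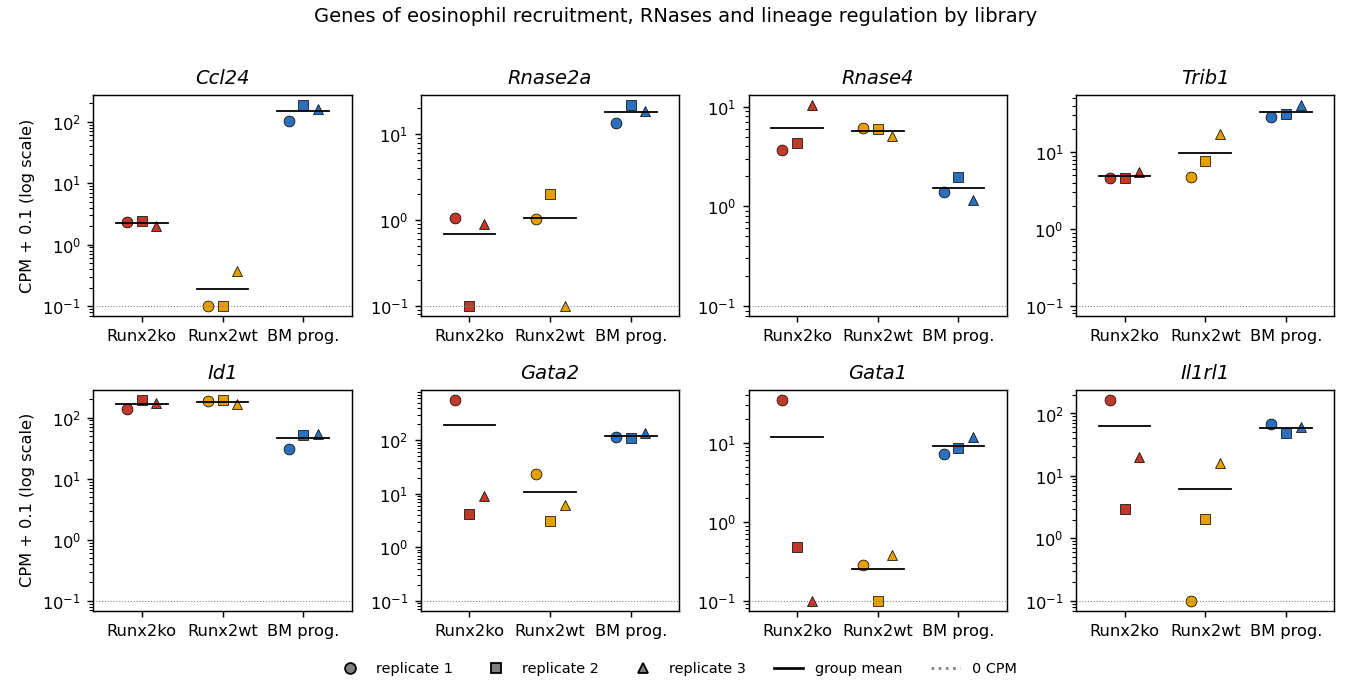
Level of 8 genes of eosinophil recruitment, ribonucleases and lineage regulation in each library, as CPM plus 0.1 on a log axis, with Runx2ko, Runx2wt and BM progenitor from left to right. Points are libraries shaped by replicate, bars are group means, and the dotted line marks 0 CPM. Ccl24, Rnase2a and Trib1 are lower in every transformed library than in BM progenitor, Rnase4 and Id1 are higher, and Gata2, Gata1 and Il1rl1 are high in Runx2ko replicate 1. Gata2, Gata1 and Il1rl1 were picked after their values were seen.

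Of 3 tested ribonucleases outside the Ear list, 1 was higher and 1 lower in each transformed group than in BM progenitor. Rnase2a, a mouse relative of the Ear genes, had log2 fold changes of -5.00 in Runx2ko (edgeR adjusted p = 0.0117) and -4.19 in Runx2wt (adjusted p = 0.0187). Rnase4, a ribonuclease of broad expression, rose by 2.09 in Runx2ko (edgeR adjusted p = 0.029) and 1.99 in Runx2wt (adjusted p = 0.0389). Rnase2a lost its Runx2ko call without BM progenitor replicate 2 or 3 (edgeR adjusted p up to 0.0554) and its Runx2wt call without any 1 of the BM progenitor libraries or Runx2wt replicate 1 (up to 0.0808). Rnase4 lost its Runx2ko call without any 1 of the BM progenitor libraries, Runx2wt replicate 1 or Runx2ko replicate 3 (edgeR adjusted p up to 0.113), and its Runx2wt call without any 1 BM progenitor or Runx2wt library (up to 0.146). Of 8 tested genes of lipid mediator synthesis, only Pla2g4a, the phospholipase that frees arachidonate, passed, higher in Runx2ko by 0.90 log2 units (edgeR adjusted p = 0.0267). Of 8 tested genes of granule storage and exocytosis shared with other granulocytes, only Cd63, a granule membrane tetraspanin, passed, higher in Runx2ko by 1.51 (adjusted p = 0.039). Without any 1 of the BM progenitor libraries both calls were lost (edgeR adjusted p up to 0.096 for Pla2g4a and 0.137 for Cd63), and that of Cd63 also without Runx2wt replicate 1. Without Runx2ko replicate 1, 2 lipid genes were higher in each comparison and 1 lower in Runx2wt, 2 granule genes were higher and 1 lower in each, and 1 ribonuclease was higher and 2 lower in each. The granule genes summed to 4665 to 9724 CPM in Runx2ko, 5341 to 8432 CPM in Runx2wt and 3306 to 3920 CPM in BM progenitor. None of these lists had a member called between Runx2ko and Runx2wt by edgeR.

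Sums of other cell type markers differed between libraries, and Runx2ko replicate 1 held the highest or the lowest sum of most lists. Mast cell and basophil markers (13 of 14 genes read) summed to 4477, 93.8 and 584 CPM in Runx2ko, 94.8, 194 and 359 CPM in Runx2wt, and 1193, 1047 and 1152 CPM in BM progenitor. The most abundant was Cpa3 in both transformed groups and Mcpt8, a basophil protease, in BM progenitor. The mast cell proteases Tpsb2, Tpsab1 and Mcpt4 were at 0 in BM progenitor. Other mast cell genes were read there, with Cpa3 at 94.2, 63.9 and 69.7 CPM and Cma1 at 0.182, 0.270 and 0.425 CPM. Tpsb2, Tpsab1, Mcpt4 and Cma1 were picked after their values were seen. In Runx2ko against BM progenitor 2 of 11 tested were higher and none lower, and in Runx2wt 1 was higher and 4 lower. Without Runx2ko replicate 1, 2 were higher and 6 lower in Runx2ko, and 2 higher and 7 lower in Runx2wt. Late neutrophil markers (10 genes) summed to 404, 4383 and 7269 CPM in Runx2ko, 337, 2680 and 876 CPM in Runx2wt, and 10412, 8817 and 7628 CPM in BM progenitor. They were lower for 2 of 10 in each comparison with BM progenitor, and without Runx2ko replicate 1 for 2 in Runx2ko, where 1 was higher, and for 6 in Runx2wt. In the transformed libraries the late neutrophil sum thus reached 7269 CPM while the eosinophil sum stayed under 20 CPM. The sum of 7269 CPM was that of Runx2ko replicate 3, where S100a8 and S100a9 alone had 4452 and 2033 CPM. Camp had at most 23.3 CPM in any transformed library against 339 CPM or more in BM progenitor, and Ltf 3.23 against 35.3. These were the 2 genes called lower in Runx2wt, and the other 8 of the list did not pass there. S100a9, Camp and Ltf were picked after their values were seen. Neutrophil primary granule markers (5 of 6 genes) summed to 580 to 3528 CPM in Runx2ko, 932 to 2486 CPM in Runx2wt and 4939 to 6453 CPM in BM progenitor. Of these 5, 1 was lower in each comparison with BM progenitor, and without Runx2ko replicate 1, 1 in Runx2ko and 2 in Runx2wt. Mpo had 67.0, 21.3 and 80.2 CPM in Runx2ko, 12.8, 10.3 and 5.01 CPM in Runx2wt, and 3055, 2939 and 2168 CPM in BM progenitor. In Runx2wt its edgeR log2 fold change was -8.16 (adjusted p = 0.000345), and the other 4 genes did not pass. Monocyte and macrophage markers (11 genes) summed to 350 to 4128 CPM in Runx2ko, 1952 to 3080 CPM in Runx2wt and 1388 to 2089 CPM in BM progenitor. All groups thus overlapped, and the sums were led by Ly6c2. Of 9 tested, 1 was higher and 1 lower in Runx2ko than in BM progenitor, and 2 were higher and none lower in Runx2wt. Without Runx2ko replicate 1, 11 were tested. Of these, 4 were higher and 1 lower in Runx2ko, and 2 higher and none lower in Runx2wt. Erythroid and megakaryocyte markers (9 genes) summed to 812, 34.1 and 42.8 CPM in Runx2ko, 8.84 to 64.8 CPM in Runx2wt and 74.8 to 79.0 CPM in BM progenitor. Of 5 tested, 1 was higher and none lower in Runx2ko than in BM progenitor, and none was called in Runx2wt. Without Runx2ko replicate 1, 1 was higher and 2 lower in Runx2ko, and 2 higher and 2 lower in Runx2wt. The part of these cell types in the eosinophil gene values was not tested. Prg2 in Runx2ko was highest in replicate 1, the library with the highest mast cell and basophil sum.

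**Figure D4:**
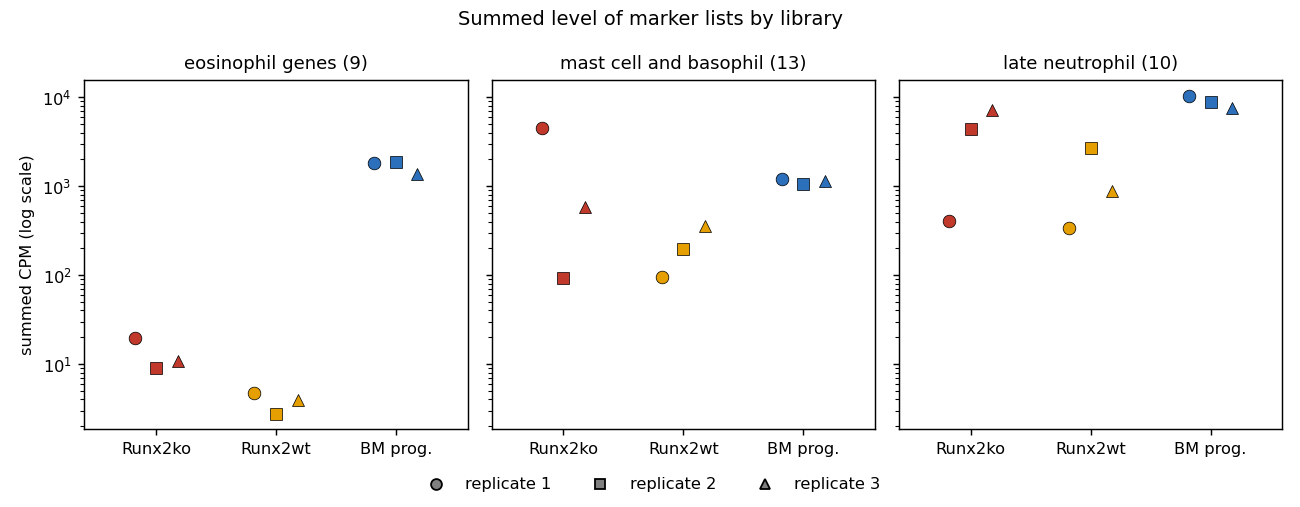
Summed CPM of the 9 eosinophil genes, 13 mast cell and basophil genes and 10 late neutrophil genes in each library on a shared log axis, with Runx2ko, Runx2wt and BM progenitor from left to right. Points are libraries shaped by replicate. The eosinophil sum is 2.77 to 19.4 CPM in all 6 transformed libraries and 1382 CPM or more in BM progenitor, while the mast cell and basophil sum of Runx2ko replicate 1 (4477 CPM) exceeds that of every other library.

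The pattern shared by the 9 genes was also searched for among the other 11187 tested genes. Likeness was the root mean square distance over the 9 libraries between a gene's centred log2 CPM and the mean of the 9 genes. The closest were Slc30a4 (0.54 log2 units), Hlf (0.56), Adgrl4 (0.58), Fcnb (0.59) and Kctd14 (0.63), where the median over the other tested genes was 2.53. Distances of the 9 genes themselves ran from 0.35 for Prg3 to 2.14 for Siglecf, with Prg2 at 1.76 and Alox15 at 1.40. Fcnb, which encodes ficolin B, had 0, 0 and 0.271 CPM in Runx2ko, 0 in every Runx2wt library, and 52.7, 47.7 and 28.2 CPM in BM progenitor. Hlf, a bZIP transcription factor of stem and progenitor cells, had 0.323, 0 and 1.08 CPM in Runx2ko, 0.188, 0.554 and 0 CPM in Runx2wt, and 23.5, 26.2 and 15.3 CPM in BM progenitor. Both thus showed reads in BM progenitor and next to none in the transformed libraries.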

How the data were processed

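The authors deposited whole-number raw counts by Ensembl identifier, and normalized values (other units, with decimal commas) that come from dividing each library's counts by its own constant. The submitters' processing notes name FastQC, STAR, DESeq2 and GRCm38; the sources used here do not give versions, counting program or strand setting, so overlapping genes may share reads. Per the labels' protocols, libraries were made from 500 ng of RNA with the reverse QuantSeq kit; the extraction text speaks of T-ALL cells, which is not settled. GENCODE vM21 named 21042 identifiers. Counts were tested in edgeR 4.0.16 (R 4.3.3; TMM, filterByExpr with a minimum of 10, quasi-likelihood F-test), with all 9 libraries sharing 1 spread and no replicate block, and p-values were adjusted by Benjamini-Hochberg over all tested genes at 0.05; fits were tested on simulated data. Intervals are 95%. P-values set the difference between groups against the spread between these samples. Within each group, libraries differed by more than sampling noise (lowest chi-square per gene 4.49). Alternatives were DESeq2 1.42.0, limma-voom 3.58.1, other scaling, filters and sample sets, a replicate block, summed Ear counts, log2 of the normalized values plus 1 or 0.1 in limma, and leaving out each library. The genes and lists were chosen with earlier results of these data known. Named genes were all 10 members, up to 3 passing genes with the largest change per list, the most abundant marker per list and group, and the 5 genes of most like pattern, unless said otherwise. Il5ra, Mrgprb2 and Azu1 were not analysed here.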

Additional observations from a re-analysis of the deposited data

How the results depend on the processing

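Members called lower than BM progenitor numbered 6 to 8 over the 19 alternatives for Runx2ko and for Runx2wt, 9 of which left out 1 library; Prg2, Prg3, Epx, Ear1, Ear2 and Ear6 passed in every alternative that tested them, and Siglecf in none. Between Runx2ko and Runx2wt, 0 members were called in 18 alternatives and 1 (Prg2) by DESeq2. Directions that turned between Runx2ko and Runx2wt were all of uncalled log2 values near 0: Ear6 at -0.00063 with a pseudocount of 1, -0.000106 with 0.1, -0.39 without Runx2wt replicate 2, -0.08 without Runx2ko replicate 2 and -0.35 without Runx2ko replicate 3; Alox15 at -0.22 with a pseudocount of 0.1 and -0.13 without Runx2ko replicate 1; Siglecf at -0.15 without Runx2wt replicate 2 and -0.04 without Runx2ko replicate 3. Their highest values with 1 library left out were 0.47 for Ear6, 1.57 for Alox15 and 1.83 for Siglecf. The cause was not tested. Without Runx2ko replicate 1, Epx and Ccr3 had no count in either transformed group and no value. Besides the losses given above, Alox15 lost its call in Runx2ko without a filter (adjusted p = 0.0647) and with only the compared groups (0.0684), and with a pseudocount of 0.1 in Runx2ko (0.0891) and Runx2wt (0.108); Ccr3 lost its call there in Runx2ko (0.0766). Over all tested genes, counts ran from 405 to 3311 for Runx2ko and 209 to 3679 for Runx2wt against BM progenitor (main 1924 and 1513), and from 0 to 48 for Runx2ko against Runx2wt. Deviations of same-numbered libraries from their group means correlated at -0.066 to 0.072, and those of other pairs at -0.115 to 0.140. With 3 libraries per group, such correlations cannot exclude a pairing. With the replicate block 7, 7 and 0 members and 1120, 922 and 0 genes were called for Runx2ko and Runx2wt against BM progenitor and for Runx2ko against Runx2wt. Except for Prg2 and Siglecf, the members had 3 counts or fewer over the Runx2wt libraries, so depth limits statements on their differences between Runx2ko and Runx2wt.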
